A study of Rattus norvegicus with 16 samples.

Results

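Cells export cholesterol through membrane transporters, hand it to apolipoproteins outside the cell, and take lipid back up through scavenger receptors and after lipolysis of lipoprotein particles. Transcripts of 6 genes of this traffic were followed in microglia, brain macrophages, cultured from rats: Abca1 (ENSRNOG00000018126) and Abcg1 (ENSRNOG00000001158), the sterol exporters; Apoe (ENSRNOG00000018454), the main lipid-carrying apolipoprotein made by glia; Scarb1 (ENSRNOG00000000981) and Cd36 (ENSRNOG00000005906), a pair of related class B scavenger receptors; and Lpl (ENSRNOG00000012181), lipoprotein lipase. They were taken by their identifiers as the genes of cholesterol efflux and lipoprotein handling and compared over 4 groups because apolipoprotein A-I (ApoA-I), the added protein, accepts cholesterol from Abca1. All 6 were among the 30560 genes listed and among the 11902 with enough counts to be tested. The symbols come from that list: the deposited tables hold identifiers only, and the RefSeq gene table used here holds all 6 symbols but pairs 0 of its 47357 genes with an Ensembl identifier. One property of the values bears on the pairing. Counts per TPM (the deposited level per transcript length and library) scale with transcript length. They were highest for Abca1, which encodes the longest of these proteins, and lowest for Apoe, which encodes the shortest, in 16 of 16 libraries. For these genes the length hardly differs between libraries, so the 16 libraries are not separate checks. Only these extremes were set against protein length. The other members, in Control 1 Lpl at 33.0 counts per TPM, Abcg1 at 27.1, Scarb1 at 18.8 and Cd36 at 16.4, were not. The order does not bear on their symbols.

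Bulk RNA was sequenced from primary wild-type microglia at day 12 in vitro. The 16 libraries formed 4 groups of 4: LPS with ApoA-I (LPS at 100 ng/ml for 20 hours and ApoA-I at 100 ug/ml in the medium), LPS alone at the same dose and time, ApoA-I alone at the same dose, and Control, with neither agent. A time is given here for LPS only, so the length of the ApoA-I exposure and its order with LPS are not known here. LPS, bacterial lipopolysaccharide, is sensed through Toll-like receptor signalling and activates microglia. The sources used here do not give the strain or sex of the animals, the lipid content of the ApoA-I, or the origin of the 4 replicates (dishes, preparations or animals), so p-values measure the spread between libraries, which may be technical. Markers of microglia or of other brain cells could not be looked up by symbol, so the cell identity was not checked here. In bulk RNA, a lower level may come from fewer cells that carry a transcript or from less of it per cell, and these cannot be told apart. Totals were 12304916 to 17262383 estimated counts per library. Over the tested genes, LPS 4 stood apart from the other LPS libraries (chi-square per degree of freedom 75.6 to 92.3 in its pairs, 3.92 to 5.14 among the others). ApoA-I 2 stood apart from the other ApoA-I libraries (53.5 to 70.7 in its pairs, 8.23 to 12.1 among the others). Control pairs gave 10.4 to 57.6, highest for Control 2 against Control 3. LPS+ApoA-I pairs gave 3.10 to 30.7, highest for LPS+ApoA-I 1 against LPS+ApoA-I 2. Without LPS 4, Abcg1 in LPS against Control lost its call, and without ApoA-I 2, Lpl gained one in ApoA-I against Control; no other call of a member in the 6 comparisons changed without either library.

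Abca1 moves phospholipid and cholesterol to lipid-poor apolipoproteins such as ApoA-I, Abcg1 moves sterols to formed particles, and both genes, with Apoe and Lpl, are textbook targets of the liver X receptors (LXRs), which sterol derivatives activate. LXRs bind DNA with retinoid X receptors at repeated half-sites, and such an element is known in the human and mouse Abca1 promoters. Scarb1 exchanges cholesterol with high-density lipoprotein in both directions, Cd36 takes up oxidised lipoprotein and long-chain fatty acids, and Lpl releases fatty acids from triglyceride-rich particles.

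The 6 genes took 3 courses. Abca1 and Abcg1 were lowest in cells given LPS and ApoA-I together, below LPS alone, ApoA-I alone and Control. Apoe was highest in those same cells, above the other 3 groups. Lpl, Scarb1 and Cd36 were far below Control with LPS, and ApoA-I raised them in LPS-treated cells to levels that stayed below Control. Without LPS, ApoA-I changed Apoe, which fell, and no other member passed the test.

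**Figure D1:**
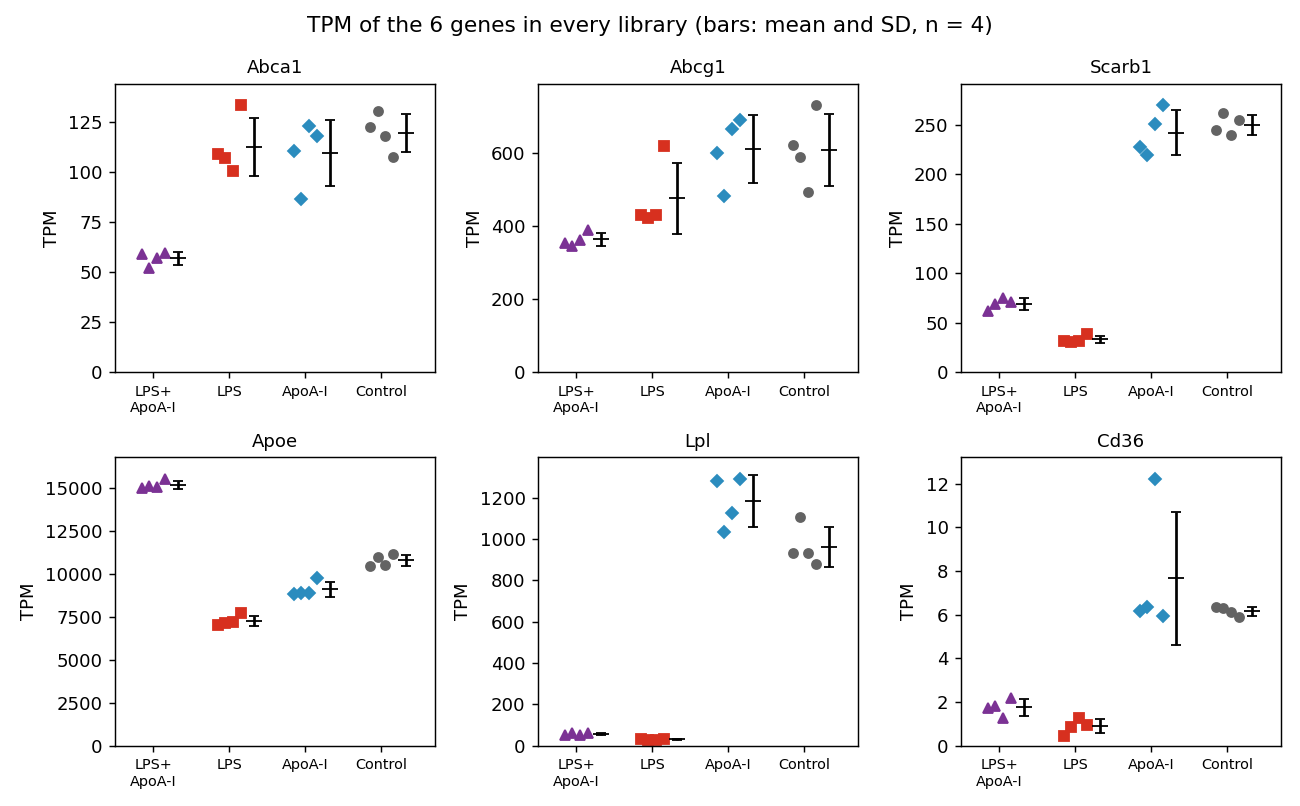
Deposited TPM (length-normalised transcript levels, linear axes from 0, a scale of its own in each panel) of the 6 genes in all 16 libraries, with the group mean and SD (n = 4) to the right of the points. Abca1 is lowest and Apoe highest in the LPS+ApoA-I libraries, Lpl lies at 29.1 to 59.9 TPM in the 8 libraries with LPS and at 882 to 1292 TPM in the 8 without, and a single ApoA-I library stands at 12.2 TPM for Cd36.

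The Abca1 promoter is shown because Abca1 is the member that accepts ApoA-I as its partner and had the largest decrease of the 6 between LPS with ApoA-I and LPS. RefSeq (GRCr8) places the window of 250 bases before to 50 after the gene start at chr5:72596424-72596723, minus strand, and it is printed 5′ to 3′. Capitals mark TGACC followed after 5 bases by TAACC, at -70 to -56 from the start, and the letters TATAAA at -32 to -27.

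Abca1: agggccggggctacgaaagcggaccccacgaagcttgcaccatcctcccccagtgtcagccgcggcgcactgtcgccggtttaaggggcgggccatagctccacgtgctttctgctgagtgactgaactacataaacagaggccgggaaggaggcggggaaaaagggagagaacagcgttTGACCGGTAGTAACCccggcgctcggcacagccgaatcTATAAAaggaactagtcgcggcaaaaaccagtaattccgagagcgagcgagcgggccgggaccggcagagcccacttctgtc

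The first match lies in a stretch with the arrangement of the LXR element known from human and mouse Abca1. That stretch has half-sites of 6 bases, TGACCG and TAACCC, with 4 bases between. The letters searched, TGACC and TAACC, leave out the last base of each half-site, so 5 bases lie between them. They were chosen after the window had been read. Searched on both strands, the match occurs in 18 of 33469 promoter windows of this length (0.0538%), and TATAAA in 14.2%. A repeat of AGGTCA with 4 bases between, the general LXR consensus, occurs in 2 of the windows and in none of the members' windows. Promoter windows were found for 3 of the 6 members, and the windows of Apoe (3 starts) and Cd36 hold neither arrangement of half-sites; the letters of a window say nothing of binding in these cells.

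Abca1, the exporter that loads ApoA-I, had 58.8, 51.9, 57.1 and 59.5 TPM in libraries with both LPS and ApoA-I, 109, 107, 101 and 134 TPM with LPS, 111, 86.3, 123 and 118 TPM with ApoA-I, and 122, 130.5, 118 and 107 TPM in Control. Every library with both agents lay below every library of the other groups, while those other 3 groups overlapped one another in TPM. How many of all tested genes separate in this way was not worked out, here or for the other members. Of them 51.4%, 69.4% and 69.6% passed the test in the comparisons of both agents with LPS, ApoA-I and Control. The group means were 56.8 ± 3.44 TPM with both agents, 113 ± 14.5 with LPS, 109.6 ± 16.3 with ApoA-I and 119.6 ± 9.59 in Control (SD, n = 4 each). On counts scaled between libraries by TMM (trimmed mean of M values; levels on this scale are written CPM), Abca1 with both agents was 2.18-fold lower than with LPS alone (log2 fold change -1.12, SE 0.08, edgeR adjusted p = 6.48e-11). In CPM the LPS libraries, at 619 to 741, also lay above all ApoA-I libraries, at 386 to 519, and all Control libraries, at 483 to 550. With both agents Abca1 was also lower than with ApoA-I alone, by -0.59 log2 units (SE 0.08, edgeR adjusted p = 5.81e-07; -0.89 with library totals and -0.92 on log2(TPM + 1)), and lower than Control, by -0.79 (SE 0.08, edgeR adjusted p = 6.56e-09). In LPS against Control, Abca1 was higher by 0.33 log2 units on TMM-scaled counts (SE 0.08, edgeR adjusted p = 0.000493; 0.28 without LPS 4), but this direction turned to -0.04 when only library totals were used and to -0.09 on log2(TPM + 1), and neither of these passed the test.

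Abcg1, the partner transporter, had 355, 347, 363 and 389 TPM with LPS and ApoA-I, 431, 423, 429.7 and 621 TPM with LPS, 601, 483, 668 and 693 TPM with ApoA-I, and 624, 589, 493 and 733 TPM in Control. The libraries with both agents were again the lowest, with no overlap with any other group, while LPS, ApoA-I and Control overlapped in TPM. The TPM means were 364 ± 18.3 with both agents, 476 ± 96.6 with LPS, 611 ± 93.7 with ApoA-I and 609.6 ± 98.9 in Control (SD, n = 4 each). In CPM the same libraries were tighter, at 885 ± 20.8 with both agents, 1196 ± 31.1 with LPS, 997 ± 11.8 with ApoA-I and 1097 ± 59.5 in Control (SD, n = 4 each). In CPM the ApoA-I libraries, at 986 to 1014, lay below all LPS libraries, at 1168 to 1239, and all Control libraries, at 1045 to 1181, and only LPS and Control overlapped. Abcg1 with both agents was lower than with LPS by -0.43 log2 units (SE 0.05, edgeR adjusted p = 9.74e-08), lower than with ApoA-I by -0.17 (SE 0.05, edgeR adjusted p = 0.00300) and lower than Control by -0.31 (SE 0.05, edgeR adjusted p = 5.05e-06). These sizes depended on the scaling: against LPS the value was -0.29 with library totals, against ApoA-I it was -0.46 with totals and -0.74 on log2(TPM + 1), and against Control -0.54 with totals and -0.73 on log2(TPM + 1), each lower and called. In LPS against Control the fitted change was 0.12 log2 units on TMM-scaled counts (SE 0.05, edgeR adjusted p = 0.0226), and it turned to a called decrease of -0.26 with library totals (edgeR adjusted p = 0.00190) and of -0.36 on log2(TPM + 1) (limma adjusted p = 0.0220). The call in this comparison also ended without Control 1 (0.11), without Control 3 (0.10) or without LPS 4 (0.11).

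For Abcg1 the deposited counts and TPM moved apart between libraries of a group. The transcript length they imply, counts divided by TPM after removal of each library's median ratio and set to 100% at the Control mean, was 110.9, 110.7, 110.7 and 106% in libraries with both LPS and ApoA-I, 110.9, 111, 108 and 87.1% with LPS, 101, 110.8, 88.0 and 81.9% with ApoA-I, and 95.3, 107, 110.9 and 87.0% in Control. Every group held libraries near 111%, and LPS, ApoA-I and Control also held libraries below 90%, with the lowest value in an ApoA-I library. The spread over the 16 libraries was larger than in 98.6% of 7167 genes with at least 100 counts in every library. For Abca1, Scarb1 and Lpl the implied length stayed between 99.6% and 101% in every library, and for Apoe between 98.5% and 101%. Cd36, with few counts, ran from 86.9% to 104%, a spread larger than in 95.1% of those genes. Since the length is made from counts and TPM, a higher TPM at equal counts gives a shorter length by construction. The part of isoform assignment in this spread was not tested.

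**Figure D2:**
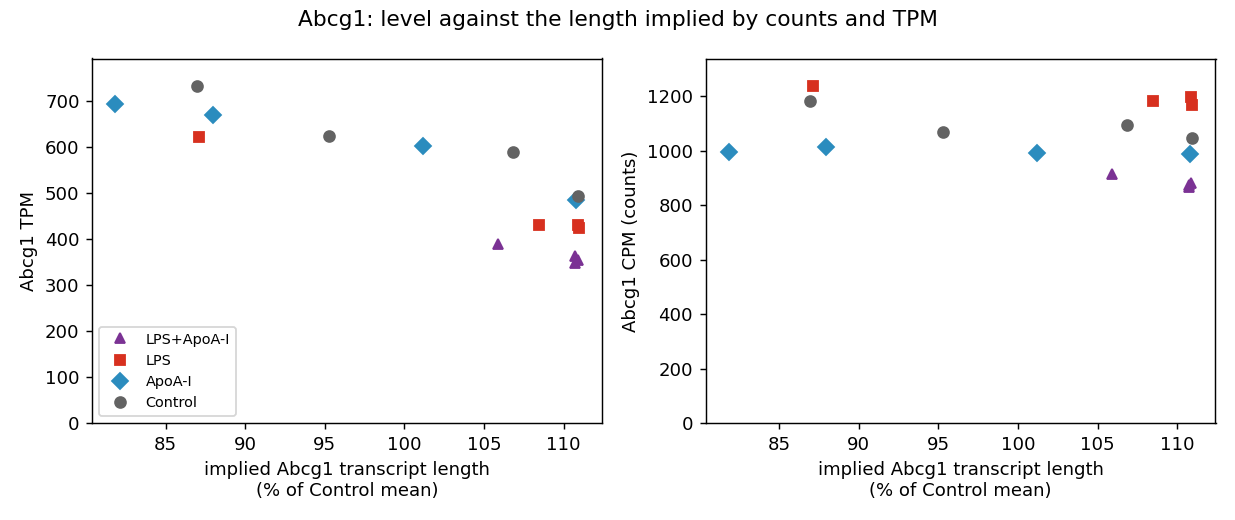
Abcg1 in each of the 16 libraries, in TPM (left) and in CPM from counts (right), against the transcript length implied by counts and TPM as a percent of the Control mean; each point is 1 library. The fall of TPM with length on the left follows from how the length is made, and the plot shows how far it varies within a group (LPS 4 at 87.1%, the other LPS libraries at 108% or more); in CPM the LPS+ApoA-I libraries lie lowest, at 868 to 915 CPM, and LPS and Control overlap.

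Apoe was among the most abundant transcripts of these cells. It had 14997, 15118, 15052 and 15532 TPM with LPS and ApoA-I, 7049, 7167, 7206 and 7699 TPM with LPS, 8829, 8898, 8903 and 9749 TPM with ApoA-I, and 10484, 10963, 10514 and 11149 TPM in Control. In TPM no 2 groups overlapped, and the order was LPS with ApoA-I, then Control, then ApoA-I, then LPS. In CPM the last 2 changed places, again without overlap, with 5583 to 5762 CPM in LPS libraries and 4617 to 5374 CPM in ApoA-I libraries. By TPM it ranked 3 to 4 among all genes of a library with both agents, 12 to 15 with LPS, 7 to 9 with ApoA-I and 6 to 8 in Control. Its share of all counts was 1.01% ± 0.0307 with both agents, 0.478% ± 0.0265 with LPS, 0.574% ± 0.0404 with ApoA-I and 0.686% ± 0.0225 in Control (SD, n = 4 each).

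Apoe with both agents was 1.90-fold higher than with LPS alone (log2 fold change 0.93, SE 0.06, edgeR adjusted p = 8.08e-12). It exceeded ApoA-I alone by 1.10 log2 units (SE 0.06, edgeR adjusted p = 1.21e-13) and Control by 0.78 (SE 0.06, edgeR adjusted p = 3.61e-11; 0.49 on log2(TPM + 1)). ApoA-I alone lowered it against Control, by -0.32 log2 units (SE 0.06, edgeR adjusted p = 0.00260), so the effect of ApoA-I on Apoe was downward without LPS and upward with it. The difference between these effects, the interaction, was 1.24 log2 units (SE 0.08, edgeR adjusted p = 6.63e-11). In LPS against Control Apoe fell by 0.14 log2 units on TMM-scaled counts (SE 0.06, edgeR adjusted p = 0.0280), by 0.52 with library totals and by 0.57 on log2(TPM + 1). The call on TMM-scaled counts ended without Control 3 (-0.13), without Control 4 (-0.12) or without LPS 1 (-0.14).

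Scarb1, the high-density lipoprotein receptor, had 61.3, 68.5, 75.2 and 70.5 TPM with LPS and ApoA-I, 31.7, 30.6, 31.1 and 38.8 TPM with LPS, 228, 219.9, 250.4 and 270.0 TPM with ApoA-I, and 245, 262, 239 and 255 TPM in Control. The 8 libraries with LPS lay below the 8 without, those with both agents lay above those with LPS alone, and ApoA-I and Control overlapped. LPS lowered Scarb1 5.64-fold against Control (log2 fold change -2.50, SE 0.07, edgeR adjusted p = 1.61e-18). With ApoA-I in both groups compared, LPS lowered it 2.75-fold (log2 fold change -1.46, SE 0.07, edgeR adjusted p = 1.72e-14). ApoA-I raised it in LPS-treated cells by 0.92 log2 units (SE 0.07, edgeR adjusted p = 3.89e-10). In TPM the level with both agents was 27.5% ± 2.30 of the Control mean, against 13.2% ± 1.56 with LPS alone (SD, n = 4 each). In CPM, the scale of the fold changes, these were 33.6% ± 2.48 and 17.7% ± 1.25.

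Cd36, a receptor for oxidised lipoprotein and a fatty acid carrier, was the scarcest member, with 7 to 21 counts in LPS libraries. It had 1.73, 1.84, 1.25 and 2.19 TPM with LPS and ApoA-I, 0.47, 0.88, 1.26 and 0.95 TPM with LPS, 6.15, 6.35, 12.2 and 5.94 TPM with ApoA-I, and 6.33, 6.30, 6.11 and 5.88 TPM in Control. The libraries with LPS were all below those without it. Libraries with both agents overlapped those with LPS alone by a single library (1.25 against 1.26 TPM), and the ApoA-I and Control libraries overlapped, with ApoA-I 3 far above the rest. LPS lowered Cd36 5.53-fold against Control (log2 fold change -2.47, SE 0.29, edgeR adjusted p = 6.81e-08). ApoA-I raised it in LPS-treated cells by 0.96 log2 units (SE 0.32, edgeR adjusted p = 0.0165; 0.55 on log2(TPM + 1)), a call that ended without LPS 1 (0.79) or without LPS+ApoA-I 4 (0.81).

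Lpl, the lipase, had the largest change of the 6 in LPS against Control. It had 52.5, 59.9, 52.5 and 59.8 TPM with LPS and ApoA-I, 32.7, 29.1, 29.8 and 33.1 TPM with LPS, 1281, 1037, 1128 and 1292 TPM with ApoA-I, and 933, 1105, 931 and 882 TPM in Control. The libraries with LPS stood apart from those without, those with both agents lay above LPS alone, and ApoA-I and Control overlapped. LPS lowered Lpl 23.0-fold against Control (log2 fold change -4.52, SE 0.08, edgeR adjusted p = 8.18e-22), a larger absolute change than in 97.0% of tested genes, and 16.4-fold with ApoA-I present (log2 fold change -4.04, SE 0.08, edgeR adjusted p = 1.03e-20). ApoA-I raised it in LPS-treated cells by 0.71 log2 units (SE 0.07, edgeR adjusted p = 2.81e-08). The level with both agents was still 5.83% ± 0.440 of the Control mean in TPM, against 3.24% ± 0.211 with LPS alone (SD, n = 4 each). In CPM, the scale of the fold changes, these were 7.12% ± 0.598 and 4.36% ± 0.229. By rank in TPM, Lpl stood at 2033 to 2309 with both agents and 3052 to 3357 with LPS, against 125 to 156 with ApoA-I and 147 to 180 in Control.

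LPS against Control asked how activation changes these genes. All 6 passed the test, 2 higher (Abca1 and Abcg1, on TMM scaling) and 4 lower (Lpl, Scarb1, Cd36 and Apoe). Of all tested genes 74.7% passed, 36.3% higher and 38.4% lower, so that passing was the usual outcome. In numbers of genes this split was 4326 higher and 4570 lower, and with library totals 2308 higher and 6738 lower. The median log2 change was -1.30 over the 6 and -0.04 over all tested genes. With ApoA-I in both groups compared (LPS with ApoA-I against ApoA-I), LPS gave 1 member higher (Apoe) and 5 lower. Of all tested genes 69.4% passed there, 34.5% higher and 34.8% lower (4111 and 4144 genes, and 2206 and 6045 with library totals). Against Control, LPS with ApoA-I also gave 1 higher (Apoe) and 5 lower, with 69.6% of tested genes called, 34.4% higher and 35.2% lower (4094 and 4190 genes, and 2583 and 5692 with library totals). The last pair of comparisons share the libraries with both agents. In them the median change of the 6 was -1.02 and -1.15 log2 units, beside -0.01 over all tested genes in each.

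In activated cells, the effect of ApoA-I on the genes is read from LPS with ApoA-I against LPS. All 6 passed, with 4 higher (Apoe, Scarb1, Lpl and Cd36) and 2 lower (Abca1 and Abcg1), where 51.4% of tested genes passed, 26.4% higher and 24.9% lower (3145 and 2969 genes, and 4506 and 1772 with library totals). The median change was 0.82 log2 units over the 6 and 0.03 over all tested genes. For Scarb1, Lpl and Cd36 the change was toward the Control level, though the Cd36 libraries of these groups overlapped. For Abca1 and Abcg1 the change ended below Control, and for Apoe it ended above Control.

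ApoA-I against Control asked the same without LPS. Of the 6, 1 passed (Apoe, lower) and none passed as higher, where 4.27% of tested genes passed, 2.5% higher and 1.77% lower (297 and 211 genes, and 353 and 72 with library totals). The other changes had edgeR 95% intervals of -0.36 to -0.04 log2 units for Abca1, -0.24 to -0.04 for Abcg1, -0.25 to 0.02 for Scarb1, 0.09 to 0.37 for Lpl and -0.19 to 0.72 for Cd36. The intervals of Abca1, Abcg1 and Lpl lie on 1 side of 0 for a single gene, but these genes did not pass after adjustment over all tested genes (edgeR adjusted p = 0.153, 0.0998 and 0.0586). Fitted with DESeq2, Lpl (0.23) and Abcg1 (-0.13) passed too. Lpl also passed without Control 2 (0.28) or without ApoA-I 2 (0.26). The Cd36 value rested on 1 library: it was 0.26 with all libraries and -0.06 without ApoA-I 3.

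The interaction tested whether ApoA-I acted differently in cells with and without LPS. It passed for 5 of the 6, where 41% of tested genes passed, 20.8% on the positive side and 20.2% on the negative side (2472 and 2408 genes, and 2955 and 1583 with library totals). Values were positive for Apoe (1.24), Scarb1 (1.04, SE 0.10, edgeR adjusted p = 1.73e-08) and Lpl (0.48, SE 0.10, edgeR adjusted p = 0.000475). They were negative for Abca1 (-0.93, SE 0.11, edgeR adjusted p = 5.73e-07) and Abcg1 (-0.30, SE 0.07, edgeR adjusted p = 0.00122). The Abcg1 call ended with library totals (-0.21) and on log2(TPM + 1) (-0.37). Cd36 did not pass (0.70, 95% interval -0.11 to 1.51), and without ApoA-I 3 its interaction was 1.02 and passed.

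**Figure D3:**
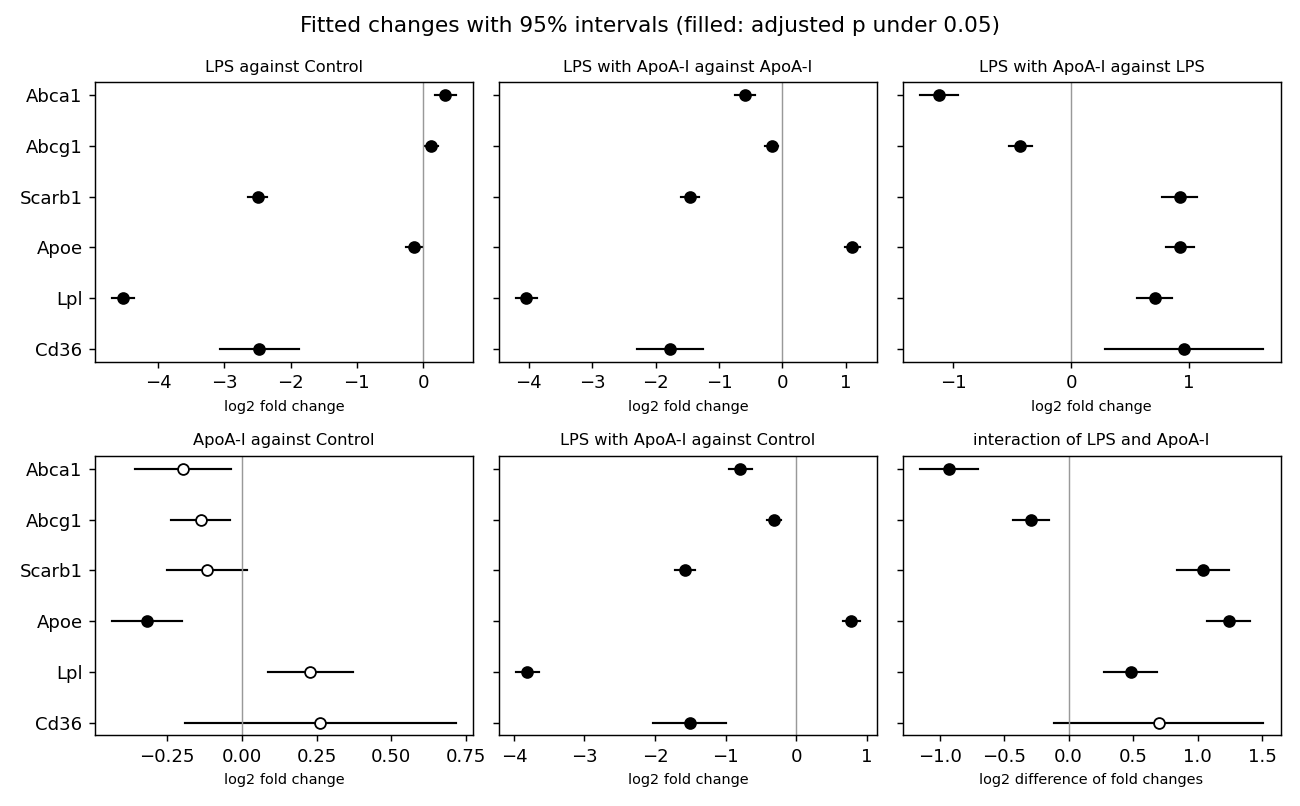
Fitted log2 fold changes of the 6 genes in the 6 comparisons (edgeR, TMM-scaled counts) with 95% intervals; each panel has an axis of its own, and filled points passed at an adjusted p under 0.05. Abca1 and Abcg1 lie left of 0 and the other 4 right of 0 in LPS with ApoA-I against LPS, and in ApoA-I against Control only the Apoe point is filled. Abca1 and Abcg1 lie right of 0 in LPS against Control, where library totals give -0.04 and -0.26.

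The scaling of libraries bears on the small changes. TMM factors were 0.912 to 0.953 in libraries with both agents and 0.812 to 0.916 with LPS, beside 1.07 to 1.18 with ApoA-I and 1.05 to 1.15 in Control. The median change of all genes in LPS against Control was -0.04 log2 units under TMM, -0.42 if libraries were scaled by their totals, and -0.39 on log2(TPM + 1). Relative to that median, Abca1 was higher by 0.37 log2 units under TMM and under totals and by 0.30 on TPM. Abcg1 was higher than the median by 0.16 under TMM and under totals and by 0.03 on TPM, and Apoe stood at -0.10, -0.10 and -0.18 against it under TMM, totals and TPM. On log2(TPM + 1) without a filter, Abca1 was higher than the median of the unfiltered genes by 0.04 and Abcg1 stood at -0.23 against it. In LPS with ApoA-I against LPS no member changed direction, with medians of all genes of 0.03 under TMM, 0.18 under totals and 0.14 on TPM.

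**Figure D4:**
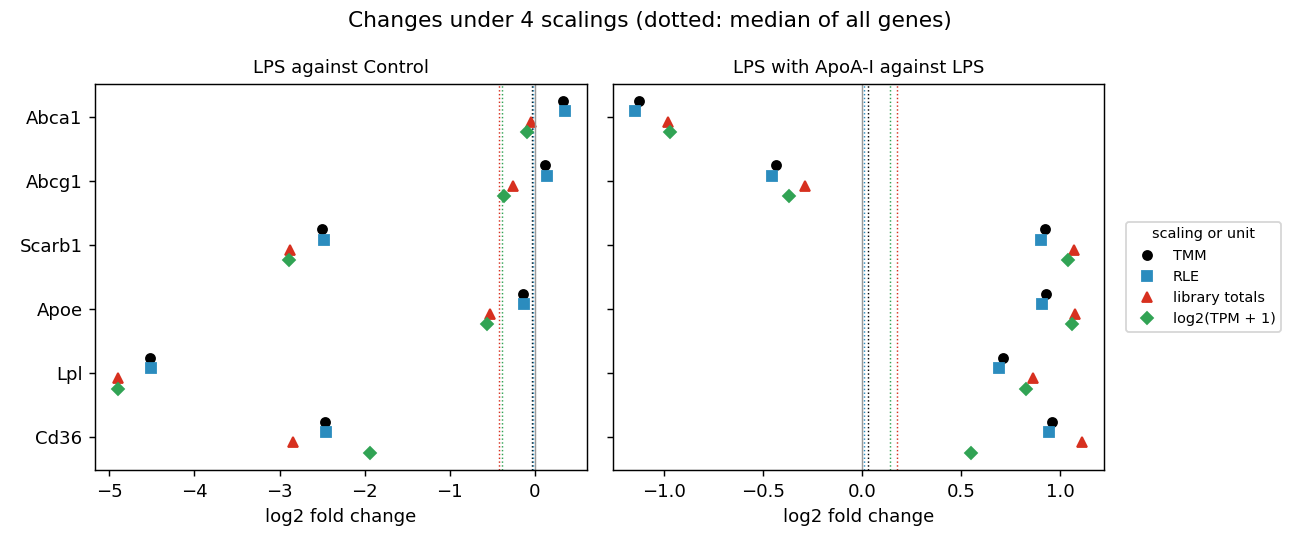
Log2 fold changes of the 6 genes under TMM, RLE (the size factors of DESeq2), library totals and log2(TPM + 1), for LPS against Control (left) and LPS with ApoA-I against LPS (right); dotted lines are the median of all genes under each. On the left Abca1 and Abcg1 lie right of 0 under TMM and RLE and left of 0 under the other two, and on the right each gene stays on its side of 0 under all 4.

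Ratios between members within a library do not depend on library scaling. Counts of Apoe per count of Abca1 were 35.1 ± 2.25 with LPS and ApoA-I, 8.50 ± 0.714 with LPS, 11.0 ± 1.82 with ApoA-I and 11.8 ± 1.17 in Control (SD, n = 4 each). The lowest library with both agents, at 33.2, was far above the highest of any other group, at 13.6. LPS with ApoA-I exceeded LPS by 2.05 log2 units and ApoA-I by 1.69 (two-sided exact permutation p = 0.0286 for each, the smallest that groups of 4 can give). The Benjamini-Hochberg value over 15 such tests was 0.0390. In LPS against Control the ratio was lower by -0.47 log2 units (two-sided exact permutation p = 0.0286, adjusted 0.0390). In each of these comparisons Apoe and Abca1 had already moved in opposite directions without overlap in CPM. Separation of the ratio, and with it the p-value, was therefore fixed in advance and adds no support. The ratios used here and below, with all 15 tests of them, were chosen after the values had been seen.

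The transporters also moved unequally. Counts of Abca1 per count of Abcg1 were 0.346 ± 0.0148 with LPS and ApoA-I, 0.558 ± 0.0303 with LPS, 0.463 ± 0.0580 with ApoA-I and 0.484 ± 0.0513 in Control (SD, n = 4 each), a difference of -0.69 log2 units between LPS with ApoA-I and LPS (two-sided exact permutation p = 0.0286, adjusted 0.0390). In LPS against Control the difference of 0.21 did not pass (exact permutation p = 0.0571, adjusted 0.0714). Counts of Lpl per count of Scarb1 were 1.44 ± 0.145 with both agents, 1.67 ± 0.131 with LPS, 8.62 ± 0.840 with ApoA-I and 6.76 ± 0.543 in Control (SD, n = 4 each). ApoA-I alone thus had a higher ratio than Control, by 0.35 log2 units (two-sided exact permutation p = 0.0286, adjusted 0.0390). By themselves, Lpl (edgeR adjusted p = 0.0586) and Scarb1 (edgeR adjusted p = 0.347) did not pass in ApoA-I against Control. In LPS with ApoA-I against LPS the ratio changed by -0.21 and did not pass (exact permutation p = 0.0857, adjusted 0.0989).

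**Figure D5:**
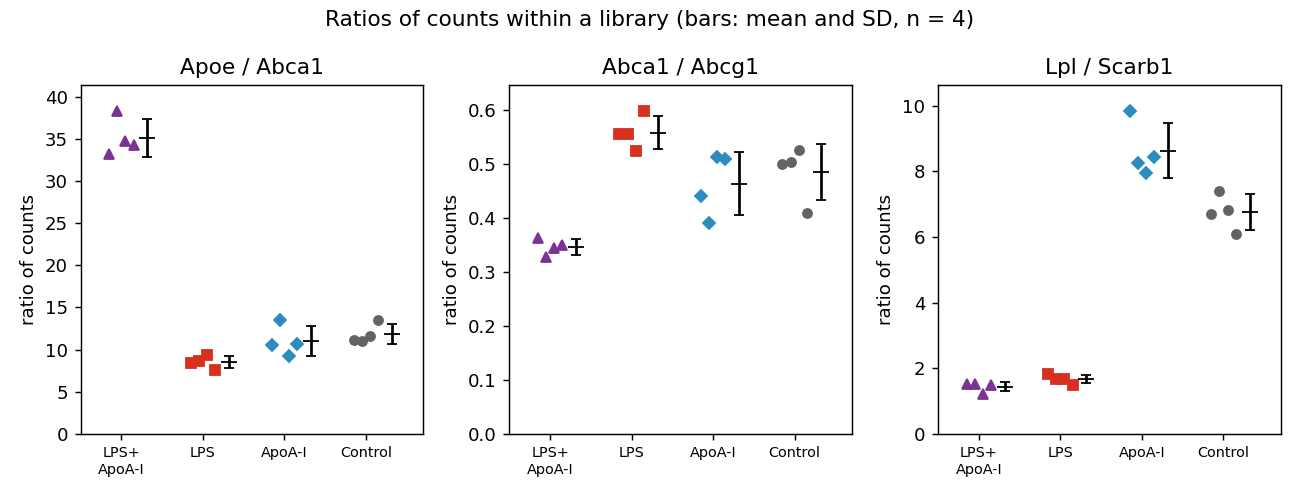
Ratios of estimated counts between 2 genes of the same library for Apoe to Abca1, Abca1 to Abcg1 and Lpl to Scarb1 (linear axes from 0), with group mean and SD (n = 4). The Apoe to Abca1 ratio is 33.2 or higher in the 4 LPS+ApoA-I libraries and 13.6 or lower in the other 12.

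For each member, the other tested gene with the most similar log2 CPM over the 16 libraries was found by Pearson's r, as a description with no test, since the 4 groups shape each r. For Lpl it was ENSRNOG00000010744 (r = 0.999), at 18.6 ± 1.60 CPM with both agents, 9.49 ± 0.138 with LPS, 508 ± 40.0 with ApoA-I and 433 ± 29.4 in Control (SD, n = 4 each). For Scarb1 it was ENSRNOG00000048961 (r = 0.998), at 161 ± 12.03 CPM with both agents, 68.2 ± 5.44 with LPS, 645 ± 55.3 with ApoA-I and 725 ± 37.0 in Control. For Abca1 it was ENSRNOG00000001235 (r = 0.981), at 580.4 ± 10.96 CPM with both agents, 805 ± 30.8 with LPS, 692 ± 40.5 with ApoA-I and 761 ± 36.5 in Control. For Abcg1 it was ENSRNOG00000014744 (r = 0.969), at 94.6 ± 3.89 CPM with both agents, 238 ± 15.2 with LPS, 153 ± 8.84 with ApoA-I and 176 ± 9.69 in Control. The files do not pair these identifiers with names.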

How the data were processed

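The authors deposited estimated counts per gene and TPM values per gene for 16 libraries. Named in the submitters' processing notes are the tools RSEM 1.3.1, STAR 2.7.10b and cutadapt 1.8.1 and the build mm10, although the identifiers are rat; the annotation and strand setting are not given in the sources used here. A mismatch of build could affect the counts of many genes, these 6 included, and was not tested. All 96 counts of the 6 genes were whole within 0.005 (3.24% of all values were not).

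The deposited expected counts were rounded and genes filtered by filterByExpr (minimum count 10). Counts were scaled by TMM and all 16 libraries fitted by group means with edgeR 4.0.16 (R 4.3.3), by quasi-likelihood tests on 12 residual degrees of freedom, with Benjamini-Hochberg adjustment over all 11902 tested genes (threshold 0.05). SEs are the absolute log2 fold change over the square root of F. Alternatives used DESeq2 1.42.0, and limma 3.58.1 on log2(TPM + 1) and log2(TPM + 0.1). Fits were tested on simulated data. No replicate pair matched within sampling noise: over 24 of them, chi-square divided by its degrees of freedom was 3.10 to 92.3. The members, tests and lists were chosen with earlier results of these data known. All 6 members are named. Planned lists of other pathway genes and of cell markers were not used, because identifiers could not be looked up; for genes of like pattern, the 2 closest with a positive and the 2 closest with a negative fitted change in LPS against Control are printed, whether called or not.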

Additional observations from a re-analysis of the deposited data

Results flagged for a closer look

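For 3 values in TPM and 1 in both units, a single library stood far from the other 3 of its group; over 24 groups examined in each unit, chance gives about 1 in 20. Abcg1 in LPS 4 was 621 TPM, against 423 to 431 TPM in the other LPS libraries, and Scarb1 in the same library was 38.8 TPM, against 30.6 to 31.7; neither stood apart in CPM. Apoe in ApoA-I 4 was 9749 TPM, with 8829 to 8903 in the others. Cd36 in ApoA-I 3 was 12.2 TPM and 11.97 CPM (184 counts), with 87 to 89 counts in the other ApoA-I libraries; what sets this library apart was not tested.

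By the interaction test, ApoA-I acted differently with LPS present than with LPS absent on Abca1 (-0.93), Abcg1 (-0.30), Scarb1 (1.04), Apoe (1.24) and Lpl (0.48 log2 units). Of all tested genes 41% passed this test. The Abcg1 call ended with library totals and in the fits on TPM.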

How the results depend on the processing

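Directions and calls of the members in the 6 comparisons, apart from those given here, were the same under every alternative run. In LPS against Control with library totals, Abca1 was -0.0430 and Abcg1 -0.26. With limma on TPM, Abca1 was -0.0927 on log2(TPM + 1), with or without a filter, and -0.0934 on log2(TPM + 0.1), and Abcg1 -0.36 on all 3. Without the filter on low counts Abcg1 was 0.11 and did not pass; leaving out 1 library gave 0.10 to 0.16, and for Apoe -0.16 to -0.12. In ApoA-I against Control, Abcg1 was 0.0044 in the 3 fits on TPM and passed with DESeq2 (-0.13), Apoe did not pass on unfiltered log2(TPM + 1) (-0.25), and Lpl passed with no filter on counts (0.23) and with DESeq2 (0.23). Leaving out 1 library gave 0.18 to 0.28 for Lpl and -0.0582 to 0.37 for Cd36. In LPS with ApoA-I against LPS, Abcg1 did not pass on unfiltered log2(TPM + 1) (-0.37), and Cd36 was 0.79 to 1.18 without 1 library. The Abcg1 interaction did not pass with library totals (-0.21) or on TPM (-0.37 in all 3 fits), and that of Cd36 was 0.53 to 1.02 without 1 library.

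Genes called in ApoA-I against Control were 508, but 806 with DESeq2, 634 without the filter on counts, 94 with only the 8 libraries compared, 250 and 224 on filtered log2(TPM + 1) and log2(TPM + 0.1), 100 on unfiltered log2(TPM + 1), and 186 to 775 without 1 library (lowest without ApoA-I 1; omitting Control 1, 2, 3 or 4 gave 284, 325, 202 or 775). Replicate numbers showed no clear pairing of the libraries. Deviations of same-numbered libraries correlated above 0.1 in 3 of 24 pairs, and 5 of 16 libraries were closest to their own number. The counts to be met without pairing were not worked out, so a weak pairing may have been missed. With the replicate number as a block, no call of a member changed and 469 genes were called in ApoA-I against Control. Depth limits Cd36, with 7 to 41 counts in libraries with LPS.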
